A study of Mus musculus with 13 samples.

Results

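Cytosolic ribosomal protein genes encode the protein part of the ribosomes that translate nuclear messenger RNA. They were chosen by symbol, as Rpl or Rps followed by a number and an optional suffix, together with Rplp0, Rplp1, Rplp2 and Rpsa, while processed copies named -ps and the Rps6k kinases were left out. This gave 89 genes of the 56953 in the table. Of these, 77 encode the standard set, 46 proteins of the large subunit and 31 of the small subunit. A further 7 are paralogues (Rpl3l, Rpl7l1, Rpl10l, Rpl22l1, Rpl39l, Rps27l and Rps4l) and 5 are like-named gene copies (Rps12l1, Rpl6l, Rpl32l, Rps3a2 and Rps3a3). Rps4l, like the copies, has no coding sequence in GENCODE M21, the annotation used here for lengths. The symbol rule leaves out Fau, which encodes Rps30 as a fusion with a ubiquitin-like protein, so it is given separately. Enough counts for a test were present for 86 members. The other 3 were Rps12l1, with 0 counts in all 13 libraries, Rpl10l, with 6 counts in 1 library, and Rpl39l, with 0 to 7 counts per library.

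Each ribosome carries a single copy of most of these proteins, and cells make them in nearly equal amounts. In vertebrates their messenger RNAs typically begin with a C followed by a run of pyrimidines, the 5′ terminal oligopyrimidine (TOP) tract, through which LARP1 and the kinase complex mTORC1 control their translation together. Their coding sequences are short, so they are among the shortest abundant messenger RNAs of a cell. A few paralogues replace a standard protein in certain tissues, such as Rpl3l in heart and skeletal muscle and Rpl10l in the mouse testis.

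The RNA came from whole aorta of ApoE-/- mice, which develop atherosclerosis on a Western diet, in a study that asked how auranofin affects progression of the disease. All mice started the diet at 6 weeks of age, received it for 16 weeks and were sampled at its end. The Auranofin group (3 libraries) received the diet with auranofin at 3 mg/kg/day, a gold compound that inhibits thioredoxin reductase. The Atorvastatin group (3 libraries) received it with atorvastatin at 10 mg/kg/day, a statin that blocks cholesterol synthesis, and the Combination group (2 libraries) received it with both drugs at these doses. The WD group (5 libraries) received the same diet with neither drug. All groups therefore share the ApoE deletion and the diet, and no healthy or chow-fed aorta was analysed here. The labels do not name the mouse behind each library, so p-values measure only the spread between these libraries, which may in part be technical.

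The start windows of a few members show the sequence feature the family is known for. Each window runs from 10 bases before the annotated start to 20 bases from it on, 5′ to 3′, from RefSeq on GRCm38.p6, with capitals marking a C followed by at least 4 pyrimidines where that C lies within 5 bases of the start. The first 4 are standard members with such a tract, the next 4 are standard members without one, and the last 3 are paralogues.
Rps27: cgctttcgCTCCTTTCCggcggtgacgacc
Rpl35a: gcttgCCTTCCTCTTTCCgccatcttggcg
Rps6: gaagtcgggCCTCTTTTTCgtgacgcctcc
Rpl39: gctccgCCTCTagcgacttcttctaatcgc
Rps28: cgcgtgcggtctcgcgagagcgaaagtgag
Rpl41: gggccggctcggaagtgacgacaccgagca
Rpl4: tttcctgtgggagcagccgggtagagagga
Rplp0: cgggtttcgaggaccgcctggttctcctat
Rps27l: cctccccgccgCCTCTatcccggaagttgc
Rpl22l1: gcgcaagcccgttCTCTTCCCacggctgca
Rpl3l: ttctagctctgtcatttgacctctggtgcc

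The windows with a tract lie for Rps27 at chr3:90213629-90213658 on the minus strand, Rpl35a at chr16:33056472-33056501 on the plus strand, Rps6 at chr4:86857348-86857377 on the minus strand and Rpl39 at chrX:37085203-37085232 on the minus strand. Those of the standard members without one lie for Rps28 at chr17:33824543-33824572 on the minus strand, Rpl41 at chr10:128549149-128549178 on the minus strand, Rpl4 at chr9:64173377-64173406 on the plus strand and Rplp0 at chr5:115559457-115559486 on the plus strand. The paralogue windows lie for Rps27l at chr9:66946076-66946105 on the plus strand, Rpl22l1 at chr3:28805498-28805527 on the plus strand and Rpl3l at chr17:24727816-24727845 on the plus strand. The tract of Rpl35a was 13 bases long and that of Rps6 was 10. Such a tract was found in 27 of 57 standard members with a window (47.4%), in 3 of 7 paralogues and copies, and in 21.2% of the 27025 genes with a window. On the opposite strand the shares were 15.8% for the standard members and 24.4% for all genes. A missing match says only that these letters are not in this window, and the annotated start need not be the start used in the aorta.

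The libraries held 19703683 to 26079566 counts. WD 2, WD 5 and Auranofin 2 stood apart from the other 10 in several measures. Their TMM scaling factors were 0.639, 0.801 and 0.629, against 0.999 to 1.23 in the other 10. Their mitochondrially encoded counts took 26.9%, 24.2% and 38.8% of the total, against 9.36% to 24.0%. Summed CPM (counts scaled to library size, here with TMM factors) of the erythroid markers, of which 7 of 8 were tested, was 11343, 6513 and 9548, against 1089 to 5088. The 10 markers of contractile smooth muscle summed to 6346 CPM in Auranofin 2 and to 11618 to 28908 CPM in the other libraries. Acta2 made up most of this sum, at 4741 CPM in Auranofin 2 and 22512 CPM in WD 2. Myh11 was at 745 CPM in Auranofin 2 and 837 CPM in WD 2, against 2702 to 5549 CPM elsewhere. Smtn, Lmod1, Myocd, Synpo2 and Mylk were likewise lowest in Auranofin 2 and WD 2, while Acta2, Tagln, Cnn1 and Des were high in WD 2. Auranofin 2 also had the highest sums of the B cell and plasma cell markers (1522 CPM, against 27.1 to 79.2 in the other 12 libraries), of the endothelial markers (2647 CPM, against 703 to 1162) and of the brown adipocyte markers (2922 CPM, against 135 to 1710.3). Not every marker followed its sum. Endothelial Kdr and brown adipocyte Dio2 and Otop1 were highest in Combination 2 (33.6, 89.7 and 50.9 CPM, against 20.4, 52.0 and 44.3 in Auranofin 2), and Ppargc1a in Auranofin 1. The macrophage sum was highest in WD 2 at 8705 CPM, while WD 5 had 653 CPM. Within it, Csf1r, Itgam and Mrc1 were highest in WD 4 and Gpnmb in WD 1. Mrc1 was at 29.5 CPM in WD 2 and 96.9 CPM in WD 4. The part of these markers in the levels of the ribosomal protein genes was not tested. In bulk tissue, fewer cells of a type and less RNA per cell cannot be told apart. Levels in these libraries also varied with transcript length, as described below. Genes outside the family with annotated transcripts of 4000 bases or more had median log2 CPM minus their own mean of -0.63 in WD 2 and -0.24 in Auranofin 2. The part of transcript length in the marker values was not tested.

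Ribosomal protein transcripts made up 1.52% to 5.55% of all counts, and the widest range was within the WD group. Their summed level was 18644, 31623 and 17472 CPM with auranofin, 12846, 13136 and 20036 CPM with atorvastatin, 23058 and 15628 CPM with the combination, and 22605, 86999, 17011, 19036 and 44587 CPM in WD 1 to 5. Group means were 22579.7 ± 7853 CPM with auranofin (SD, n = 3), 15339 ± 4070.2 CPM with atorvastatin (n = 3), 19343 ± 5254 CPM with the combination (n = 2) and 38048 ± 29502 CPM in WD (n = 5). WD 2 was 4.45 times and WD 5 was 2.28 times the mean of WD 1, 3 and 4, which was 19551 ± 2832 CPM (SD, n = 3). The ranges of all 3 drug groups overlapped that of WD, and 2 of the 3 atorvastatin libraries lay below every library of the other groups.

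The same picture held as a share of counts, which needs no scaling factor. The share was 1.86%, 1.99% and 1.99% with auranofin, 1.53%, 1.52% and 2.01% with atorvastatin, 2.72% and 1.68% with the combination, and 2.78%, 5.55%, 1.74%, 2.35% and 3.57% in WD. Auranofin 2, which came after WD 2 and WD 5 by CPM, was level with the other auranofin libraries by this measure. Relative to counts outside the mitochondrial genome, Auranofin 2 was at 3.24%, against 2.45% in Auranofin 1 and 2.37% in Auranofin 3. There it again came after WD 2 (7.60%) and WD 5 (4.71%). The group means of this share were 2.69% ± 0.483 with auranofin, 2.02% ± 0.452 with atorvastatin, 2.57% ± 0.701 with the combination and 4.05% ± 2.199 in WD (SD, n = 3, 3, 2 and 5).

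The balance of the subunits was nearly fixed, with a small shift in the libraries named above. The ratio of summed large to summed small subunit CPM was 1.41 in each of WD 2, WD 5 and Auranofin 2, against 1.49 to 1.57 in the other 10 libraries. By group it averaged 1.49 ± 0.0696 with auranofin, 1.54 ± 0.0313 with atorvastatin, 1.51 ± 0.0105 with the combination and 1.48 ± 0.0646 in WD (SD, n = 3, 3, 2 and 5). Rows named as processed copies (-ps, 322 rows, not members) summed to between 12.4% and 13.1% of the member sum in each library, so they moved with the members. How reads shared by near-identical copies were counted is not given in the sources used here, and counts of single members with such copies are uncertain to that extent.

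**Figure D1:**
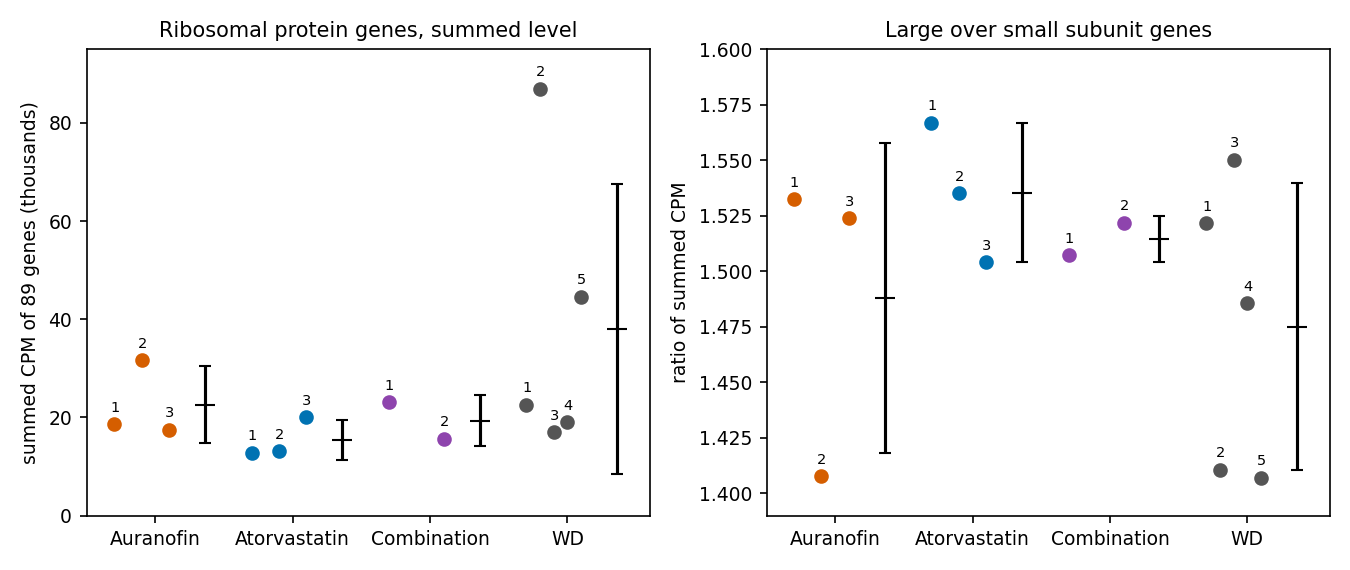
Summed CPM of the 89 genes (left, in units of 1000 CPM, axis from 0) and the ratio of large to small subunit CPM (right, axis not from 0) for each library, numbered by replicate, with the mean and SD of each group to the right of its points. WD 2 (86999 CPM) and WD 5 (44587 CPM) stood above the rest, and WD 2, WD 5 and Auranofin 2 shared a ratio of 1.41.

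Per kilobase of annotated transcript, the standard members ran at similar levels. Their median, taken over genes of the median over 13 libraries, was 287 CPM per kb with quartiles of 184 and 356, and 72 of 77 reached 50 CPM per kb. At the top stood Rplp1 at 864 CPM per kb, one of the acidic stalk proteins that recruit elongation factors, and Rpl10 at 803, which shapes the site where transfer RNAs bind. Rpl41, which encodes the shortest ribosomal protein, followed at 643, then Rps15 at 633 and Rps27, a zinc finger protein of the small subunit, at 558. Next came Rps6, the substrate of the S6 kinases, at 537 CPM per kb and Rpl7 at 467.

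Rpl41 is shown because its coding sequence of 78 bases is the shortest of the set, although its annotated transcript of 544 bases is longer than that of Rps27 (345 bases) or Rps28 (387 bases).
Rpl41: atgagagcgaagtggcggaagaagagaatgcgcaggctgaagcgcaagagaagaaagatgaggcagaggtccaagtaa

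The 5 standard members under 50 CPM per kb were Rps20 at 37.2, Rps15a at 36.6, Rpl13a at 9.36, Rps10 at 2.67 and Rpl24 at 0.905. Rps20 and Rps15a have long annotated transcripts, 3706 and 5130 bases, against a median of 827 bases over the standard set. Rpl13a, Rps10 and Rpl24 share exon bases on the same strand with another annotated gene (Gm45713, RPS10-NUDT3 and Gm28037) in GENCODE M21, so their counts are uncertain. The same is true of Rpl19 (with Gm11629), which was not low, at 144 CPM per kb. Overlaps on the opposite strand are not listed here, and in these non-stranded libraries they would leave counts uncertain too. Rpl24, a protein at the interface of the subunits, had 6 to 24 counts per library, and Rps10, a protein of the small subunit head, had 14 to 53. Outside the rule, Fau was at 74.9 to 631 CPM.

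The paralogues and copies lay below their standard counterparts. Rps27l was at 49.99 CPM per kb, Rpl7l1 at 22.9 and Rpl22l1 at 16.9, against 558 for Rps27, 467 for Rpl7 and 63.9 for Rpl22. Among the copies, Rps12l1 was at 0, Rpl32l and Rps3a3 were at 2.01 and 2.25 CPM per kb, Rpl6l was at 64.1 and Rps3a2 was the highest at 154. Coding sequence identity with the standard gene was 85.3% for Rpl39l, 84.8% for Rpl10l, 76.1% for Rps27l, 73.3% for Rpl3l, 68.2% for Rpl22l1 and 54.1% for Rpl7l1. Rps27 and Rps27l are shown whole because both are expressed and have the same coding length of 255 bases. Capitals mark the 61 positions where they differ.
Rps27: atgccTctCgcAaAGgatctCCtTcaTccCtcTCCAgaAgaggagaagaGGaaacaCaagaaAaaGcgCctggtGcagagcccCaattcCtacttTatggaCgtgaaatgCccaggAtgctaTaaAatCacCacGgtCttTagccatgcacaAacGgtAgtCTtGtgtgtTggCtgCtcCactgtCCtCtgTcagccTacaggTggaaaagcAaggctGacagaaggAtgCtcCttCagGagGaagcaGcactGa
Rps27l: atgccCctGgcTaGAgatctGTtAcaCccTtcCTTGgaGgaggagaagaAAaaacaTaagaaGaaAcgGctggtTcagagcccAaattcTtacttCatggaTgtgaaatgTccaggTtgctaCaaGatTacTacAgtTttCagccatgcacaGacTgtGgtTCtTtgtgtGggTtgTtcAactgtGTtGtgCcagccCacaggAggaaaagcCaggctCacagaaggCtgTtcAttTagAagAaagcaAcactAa

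Rps27l, which is known in mouse and human as a target of p53, followed Rps27 across the libraries. Rps27 was at 197, 397 and 182 CPM with auranofin, 107, 124 and 195 CPM with atorvastatin, 195 and 154 CPM with the combination and 193, 1090.2, 189, 170.4 and 591 CPM in WD. Rps27l was at 24.9, 37.1 and 21.8 CPM with auranofin, 16.4, 18.2 and 26.5 CPM with atorvastatin, 29.6 and 24.8 CPM with the combination and 31.7, 125, 22.1, 23.2 and 53.3 CPM in WD. For both genes WD 2 was highest and Atorvastatin 1 lowest, and every drug group overlapped WD.

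The members varied far more between libraries than other genes. The SD of log2 CPM over the 13 libraries had a median of 0.79 over the 86 members, against 0.46 over all 18055 genes tested and 0.48 over the 376 other genes at or above the median level of the members. They also varied as 1 block: the first principal component held 93.5% of the variance of the members and 35.6% of that of all genes tested. WD 2 was the highest library for 83 of 86 members, Auranofin 2 for 2 (Rpl24 and Rps10) and WD 4 for 1 (Rpl3l). Atorvastatin 1 was the lowest library for 55 members and Atorvastatin 2 for 27. Since the members move together, a count of members in 1 direction says little more than the direction of the block.

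**Figure D2:**
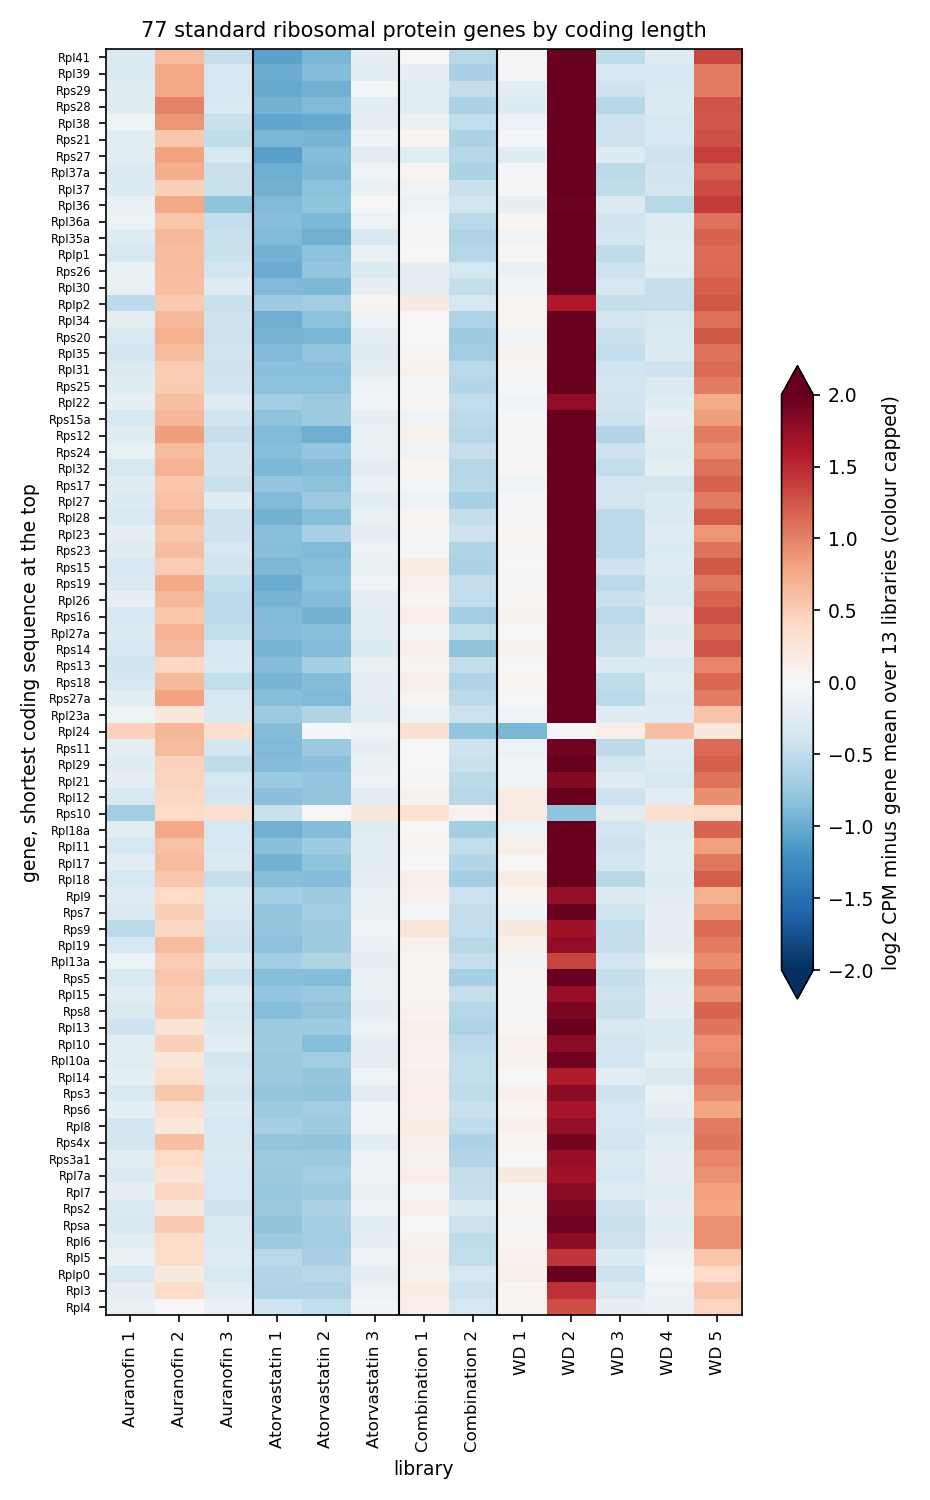
Log2 CPM of each of the 77 standard members (rows, shortest coding sequence at the top) minus its own mean over the 13 libraries (columns, by group, with WD at the right). Red is above and blue below the mean, and the colour is capped at the ends of the scale. The WD 2 column is red for all genes but Rpl24 and Rps10, and the Atorvastatin 1 and 2 columns are mostly blue.

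The largest spread belonged to Rpl3l, at an SD of 1.46, followed by Rps28 at 0.94, Rps27 at 0.93 and Rps29 at 0.93. Rps28 and Rps29 are among the smallest proteins of the small subunit. Rps28 was at 70.7, 167 and 67.7 CPM with auranofin, 43.6, 45.7 and 72.7 CPM with atorvastatin, 72.6 and 53.9 CPM with the combination and 69.6, 418, 56.5, 68.7 and 200.3 CPM in WD. Rps29 was at 95.7, 193 and 89.04 CPM with auranofin, 56.4, 58.1 and 111 CPM with atorvastatin, 97.1 and 81.2 CPM with the combination and 97.5, 627, 84.6, 91.4 and 230.0 CPM in WD. In both, WD 2 stood 6.46 and 6.88 times above the geometric mean of WD 1, 3 and 4, and the atorvastatin libraries 1 and 2 were the lowest of all.

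The smallest spread belonged to Rpl7l1, at an SD of 0.22, then to Rps10 at 0.41, Rpl4 at 0.45 and Rpl24 at 0.54. Rpl7l1 was at 42.4, 47.2 and 44.4 CPM with auranofin, 38.3, 36.9 and 46.1 CPM with atorvastatin, 53.1 and 44.8 CPM with the combination and 50.2, 65.7, 43.4, 43.3 and 54.6 CPM in WD. Its highest library was again WD 2, but only 1.44 times the geometric mean of WD 1, 3 and 4. Rpl4, whose extension lines the exit tunnel of the ribosome and whose coding sequence is the longest of the standard set, was at 587, 660.1 and 593 CPM with auranofin, 494, 467 and 628 CPM with atorvastatin, 716 and 516 CPM with the combination and 669, 1596, 585, 595 and 877 CPM in WD. Rpl4 in WD 2 was 2.59 times that mean.

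The excess in WD 2 was graded by the length of the coding sequence. Against the mean of WD 1, 3 and 4, the median excess on the log2 scale was 2.46 for the 24 standard members with coding sequences under 400 bases, 2.25 for the 39 from 400 to under 700 bases and 1.94 for the 14 of 700 bases or more. Over the 77 standard members, Spearman's rho between coding length and this excess was -0.76 and Pearson's r was -0.43. Without Rpl24, Rps10 and Rpl13a (74 members) they were -0.78 and -0.77. In WD 5 the medians were 1.40, 1.29 and 1.008 and rho was -0.69. These are descriptions across genes of the same libraries, which share the library, its depth and its scaling.

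**Figure D3:**
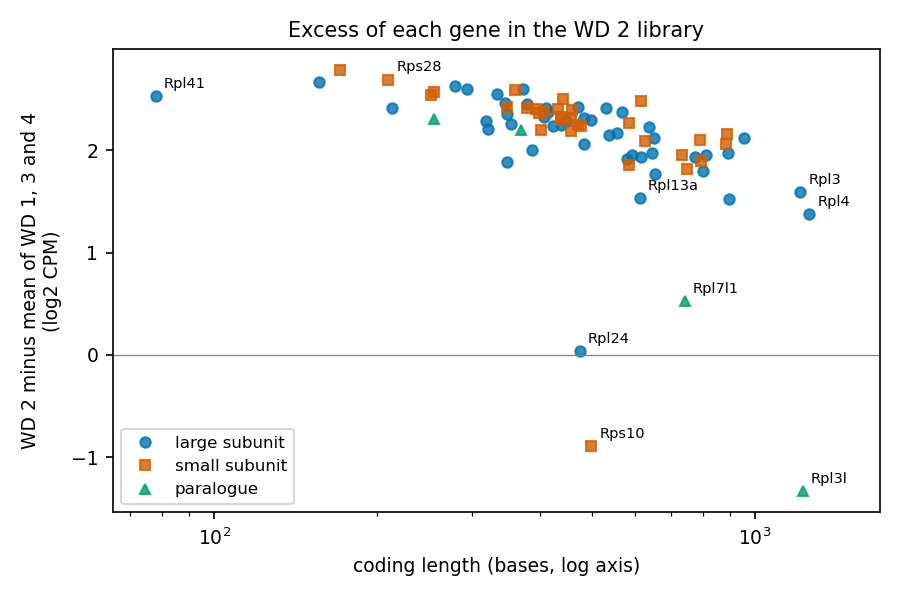
Log2 CPM in WD 2 minus the mean of WD 1, 3 and 4 (y axis) against coding length in bases (x axis, log scale) for members with a coding sequence. Rpl41, Rps28 and other short members sit near the top, Rpl3 and Rpl4 lower at 1.591 and 1.37, and Rpl7l1, Rpl24, Rps10 and Rpl3l stand apart below.

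Genes outside the family were graded by the length of the annotated transcript. Among other genes with a mean of at least 1 CPM, the median log2 difference between WD 2 and the mean of WD 1, 3 and 4 was 1.71 for the 401 with annotated transcripts under 500 bases and 1.52 for the 500 from 500 to under 750 bases. It was 0.88 for the 1471 from 1000 to under 1500 bases and -0.70 for the 4003 of 4000 bases or more. Ribosomal protein genes exceeded others of like length in WD 2, at 2.41 under 500 bases (11 members), 2.32 from 500 to under 750 bases (25 members) and 2.09 from 1000 to under 1500 bases (14 members). By transcript length the members did not fall away as the other genes did: their median was 1.97 from 750 to under 1000 bases (23 members) and 1.98 from 1500 to under 2500 bases (8 members). The members with the longest annotated transcripts, Rps20 and Rps15a, were at 2.59 and 2.40. In WD 5 the values under 500 bases were 1.53 for members and 1.04 for other genes, and in Auranofin 2 they were 0.85 and 0.63. No test was made of these differences, since WD 2 was singled out for its level.

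**Figure D4:**
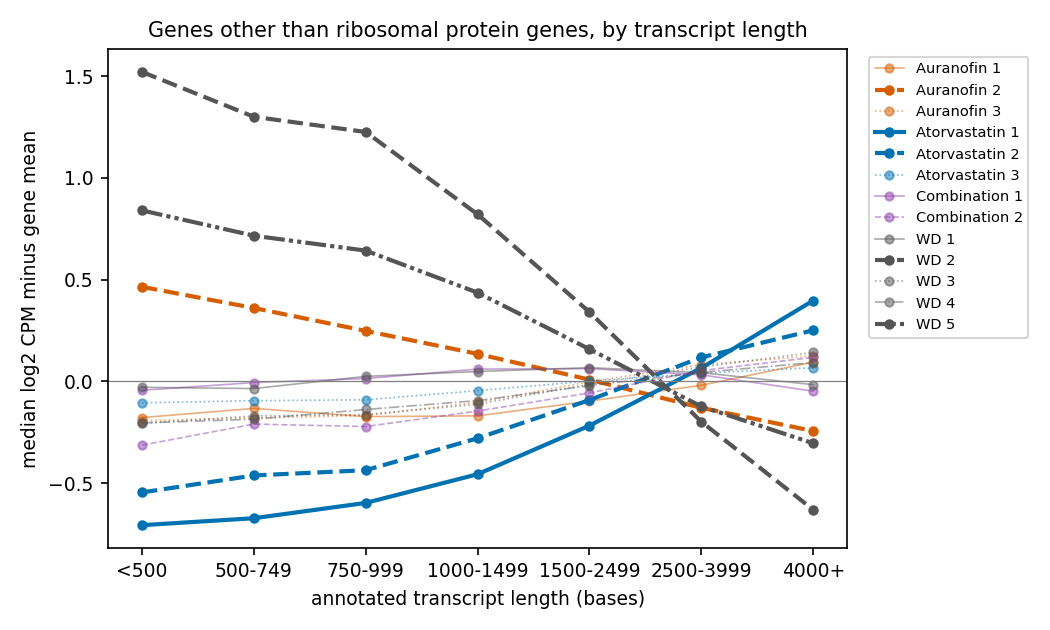
Median log2 CPM minus the gene's own mean over 13 libraries (y axis) by annotated transcript length in bases (x axis, 7 classes), for genes that are not ribosomal protein genes, with 1 line per library. In the class under 500 bases the lines of WD 2 (1.52), WD 5 (0.84) and Auranofin 2 (0.46) are on top and those of Atorvastatin 2 (-0.55) and Atorvastatin 1 (-0.71) at the bottom, and this order turns round at 4000 bases or more.

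Removing a smooth length trend, fitted in each library on the genes outside the family, narrowed the range of the members without removing it. The mean log2 CPM of the members became 8.50 in WD 2 (9.15 before), 7.95 in WD 5 (8.23 before) and 7.503 in Auranofin 2 (7.78 before). It became 6.81 in Atorvastatin 1 (6.43 before) and 6.73 in Atorvastatin 2 (6.49 before). WD 2 and WD 5 were still the highest libraries and these 2 atorvastatin libraries the lowest. The labels give no RNA integrity value, so the part of RNA quality in these differences was not tested.

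Auranofin alone was compared with WD first. No member passed an adjusted p of 0.05 (edgeR quasi-likelihood test, Benjamini-Hochberg), as for all genes tested (0%), and 0 of 86 members against 6.5% of genes had an unadjusted p under the same threshold. Fitted log2 fold changes were below 0 for 84 of 86 members (53.6% of all genes), with a median of -0.75 against -0.04 over all genes. DESeq2 and limma voom also called 0 members, and the smallest adjusted p of a member in edgeR was 0.671. The median was -0.19 without WD 2, 0.29 without both WD 2 and WD 5 (84 of 86 above 0), and -0.24 with limma's sample weights.

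The members with the smallest p were Rpl8, Rpl13 and Rpl10a, all of the large subunit, and none passed. Rpl8, close to the peptidyl transferase centre, was at 277, 419 and 283 CPM with auranofin, 227, 219 and 348 CPM with atorvastatin, 401 and 252 CPM with the combination and 386, 1224, 285, 296 and 742 CPM in WD. Auranofin 1 and 3 lay just below the lowest WD library and Auranofin 2 among the higher ones. Its fitted log2 fold change with auranofin was -0.85 (SE 0.47) with an adjusted p of 0.671 in edgeR. Rpl13 was fitted at -0.94 (SE 0.52) and Rpl10a, the protein of the L1 stalk, at -0.86 (SE 0.48). Rpl24 and Rps10, both at low and uncertain counts, were the members fitted above 0, at 0.45 (SE 0.44) and 0.05 (SE 0.37).

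Atorvastatin alone gave the lowest levels of the members. All 86 had a fitted log2 fold change below 0 against WD (50.8% of all genes), with a median of -1.34 against -0.01 over all genes. None passed an adjusted p of 0.05 in edgeR (0% of all genes), DESeq2 or limma, and the smallest adjusted p of a member was 0.340. At an unadjusted p under 0.05, 79 of 86 members were lower (91.9%), against 10.5% of genes lower and 14.7% in either direction. Leaving out Atorvastatin 1 or Atorvastatin 2 reduced this number to 1 member and leaving out WD 2 to 9. It was 2 without both WD 2 and WD 5 (0.811% of genes lower) and 62 after the length trend was removed (6.62% of genes lower). The share of all genes was not computed for the fits without a single library. The median was -0.78 without WD 2, -0.32 without both (86 of 86 still below 0), -0.80 after the length trend was removed and -0.70 with limma's sample weights.

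Among members named by the smallest p, Rpl35a and Rps14, both linked to human anaemias of ribosomal protein loss, had high counts. Rpl35a was at 147, 272 and 128 CPM with auranofin, 94.8, 89.5 and 140.3 CPM with atorvastatin, 177 and 113 CPM with the combination and 166, 874, 135, 148 and 393 CPM in WD. Atorvastatin 1 and 2 lay below the other libraries and Atorvastatin 3 within the WD range. The fitted log2 fold change was -1.66 (SE 0.61) for Rpl35a and -1.58 (SE 0.58) for Rps14, both with an adjusted p of 0.340 in edgeR. Rpl32l, a gene copy with 8 to 40 counts per library, was fitted at -1.56 (SE 0.48). It was the 1 member of 86 whose atorvastatin libraries all lay below all WD libraries, a pattern found in 2.87% of genes. With auranofin and with the combination this held for 0 members, against 1.32% and 1.75% of genes.

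The combination lay between the single drugs in its fitted median. Fitted log2 fold changes against WD were below 0 for 85 of 86 members (51% of all genes), with a median of -1.01 against -0.01 over all genes. Neither any member nor any gene passed an adjusted p of 0.05 in edgeR (0%), and 0 members against 1.47% of genes had an unadjusted p under 0.05. DESeq2 and limma also called 0 members, with 5 (2.06% of genes) and 0 (1.36% of genes) of them at an unadjusted p under 0.05. The smallest adjusted p of a member was 0.997, with only 2 libraries in the group. The median was -0.45 without WD 2, -0.0018 without both WD 2 and WD 5, -0.57 with total counts in place of TMM factors, -0.61 after the length trend was removed and -0.27 with limma's sample weights.

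Rpl39, Rpl27 and Rps27 had the smallest p with the combination, and none passed. Rpl39, a small protein that lines the exit tunnel, was at 55.3, 116 and 53.7 CPM with auranofin, 34.2, 37.4 and 58.6 CPM with atorvastatin, 60.6 and 43.5 CPM with the combination and 66.5, 367, 54.2, 53.9 and 140.3 CPM in WD. Both combination libraries were within or below the range of WD 1, 3 and 4, while WD 2 and WD 5 were above them. The fitted log2 fold change was -1.39 (SE 0.73) for Rpl39, -1.23 (SE 0.65) for Rpl27 and -1.36 (SE 0.72) for Rps27. Rps10, with 14 to 53 counts per library, was the only member fitted above 0, at 0.15 (SE 0.41).

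**Figure D5:**
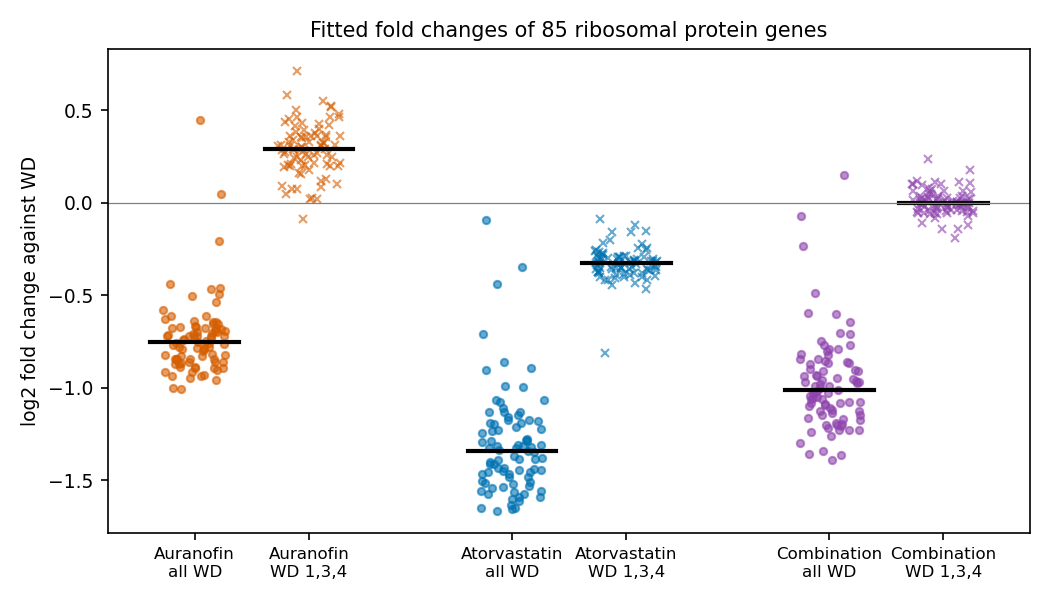
Fitted edgeR log2 fold changes against WD of 85 members (the 86 tested less Rpl3l, which lies off the scale) for auranofin, atorvastatin and the combination, with all 5 WD libraries (circles) and without WD 2 and WD 5 (crosses). Black bars are medians. With all WD libraries the clouds centre near -0.75, -1.34 and -1.01, and without WD 2 and WD 5 near 0.29, -0.32 and -0.0018.

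The 3 comparisons share the WD libraries, so their fold changes are not independent of each other. In the additive model over all 13 libraries, the atorvastatin term had a median of -0.91, with 86 of 86 members below 0 (49.6% of genes), 0 called (0% of genes) and 28 lower at an unadjusted p under 0.05 (4.24% of genes lower, 7.08% in either direction). The median of this term was -0.57 without WD 2, -0.31 without both WD 2 and WD 5, -0.51 with total counts, -0.52 after the length trend was removed and -0.41 with limma's sample weights. The unadjusted count ran from 0 to 75 as 1 library at a time was left out: with Atorvastatin 1 removed it was 0, with Atorvastatin 2 or Auranofin 2 removed 1, with Atorvastatin 3 removed 4, with WD 5 removed 5, with Combination 2 removed 7 and with WD 2 removed 12. It reached 42 with WD 1 removed and 57 to 75 with Auranofin 1, Auranofin 3, WD 3, WD 4 or Combination 1 removed. The share of all genes at that p was not computed for these fits. The auranofin term had a median of -0.31, with 84 of 86 below 0 (55.4% of genes), 0 called (0%) and 0 at an unadjusted p under 0.05 (2.69% of genes). That median was 0.036 without WD 2, 0.31 without both WD 2 and WD 5, -0.18 without Auranofin 1, -0.16 without Auranofin 3, -0.52 without Combination 1 and -0.0014 with limma's sample weights.

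The interaction asked whether the effect of auranofin differed when atorvastatin was given. Its fitted value was below 0 for 1 of 86 members (47.7% of genes), with a median of 1.08 against 0.04 over all genes, and 0 members and 0% of genes passed in edgeR, with 0 members against 3.1% of genes at an unadjusted p under 0.05. DESeq2 and limma called 0 members. The median was 0.51 without WD 2, 0.062 without both WD 2 and WD 5, 0.67 after the length trend was removed and 0.65 with limma's sample weights. In the test of any difference among the 4 groups 0 members passed (0% of genes), and 1 member, Rpl32l, had an unadjusted p under 0.05 (3.04% of genes), against 47 in DESeq2 (6.54% of genes).

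The erythroid markers, highest in WD 2, Auranofin 2 and WD 5, had no shared direction over the comparisons. Their summed level ran from 2497 to 9548 CPM with auranofin, 1393 to 5038 CPM with atorvastatin, 2582 to 5088 CPM with the combination and 1089 to 11343 CPM in WD. Fitted against WD, 7 of 7 tested markers were above 0 with auranofin, 3 with atorvastatin and 3 with the combination, and 0 passed in edgeR. Of all genes, 53.6%, 50.8% and 51% were fitted below 0 in the same order. Auranofin 2 held the highest of the auranofin sums, at 9548 CPM. None of the 7 tested markers was at 0 in any library. Their part in the levels of the ribosomal protein genes was not tested.

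Rpl3l, the striated muscle paralogue of Rpl3, did not follow the family. It was at 0, 0.263 and 0.447 CPM with auranofin, 0.0756, 0 and 0.294 CPM with atorvastatin, 0.185 and 0.756 CPM with the combination and 1.47, 0.420, 0.572, 1.94 and 0.0507 CPM in WD, with 0 to 53 counts per library. WD 4 and WD 1 were highest and WD 2 and WD 5 lower, whereas its parent gene Rpl3, at 405, 607 and 401 CPM with auranofin, 305, 307 and 431 CPM with atorvastatin, 513 and 344 CPM with the combination and 474, 1284, 382, 427 and 681 CPM in WD, was highest in WD 2. The 20 striated muscle markers, of which 19 were tested, summed to 22.2 to 147 CPM with auranofin, 17.7 to 42.9 CPM with atorvastatin, 42.2 and 2020.2 CPM with the combination and 29.2 to 770.3 CPM in WD. Their sum was highest in Combination 2, then in WD 4 (770.3 CPM) and WD 1 (548 CPM). Myh6, Myh7, Tnni3, Tnnt2, Tnnc1, Actc1 and Ttn kept this order, but other markers did not. Myl2 was at 70.8 CPM in WD 4 and 58.6 CPM in WD 1, against 0.52 CPM in Combination 2. Nppa and Myl7 were highest in Combination 2 and low in WD 4 (0.292 and 0.584 CPM). Myh4 was highest in Auranofin 3 (36.9 CPM) and WD 3 (31.3 CPM), and at 0 in WD 1 and Combination 2. Nppa was at 0 in 7 libraries and Myh4 in 4. Against WD, Rpl3l had fitted log2 fold changes of -1.90 (SE 1.12) with auranofin, -2.86 (SE 1.20) with atorvastatin and -0.96 (SE 1.20) with the combination, with adjusted p in edgeR of 0.671, 0.340 and 0.997. The part of muscle tissue in these values was not tested.

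Rpl5 and Rpl11, which bind Mdm2 when free of the ribosome, were both highest in WD 2, as most members were. The SD of log2 CPM over the 13 libraries was 0.76 for Rpl11, near the median of 0.79 over the 86 members. For Rpl5 it was smaller, at 0.55. Rpl11 was at 198, 375 and 198 CPM with auranofin, 139.8, 154 and 216 CPM with atorvastatin, 259.9 and 179 CPM with the combination and 272, 992, 188, 216 and 445 CPM in WD. Rpl5 was at 399, 569.6 and 367 CPM with auranofin, 304, 281 and 409 CPM with atorvastatin, 475 and 311 CPM with the combination and 467, 1186, 366, 411 and 646 CPM in WD. In both genes the WD range held the range of each drug group except for Atorvastatin 1 and 2, and Combination 2, which were lower.

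Rplp0 of the P stalk and Rpsa, also known as a laminin receptor, were highest in WD 2 as well. Rplp0, the stalk base, was at 480.0, 673 and 483 CPM with auranofin, 398, 405 and 522 CPM with atorvastatin, 626 and 473 CPM with the combination and 644, 2386, 441, 588 and 777 CPM in WD. At 777 CPM, WD 5 was much closer to WD 1, 3 and 4 than to WD 2. Rpsa was at 588, 1049 and 597 CPM with auranofin, 418, 462 and 630.3 CPM with atorvastatin, 733 and 546 CPM with the combination and 742, 2820.3, 537, 636 and 1386 CPM in WD. In Rpsa WD 2 and WD 5 both stood above WD 1, 3 and 4, with Auranofin 2 next.

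Lists of genes that act with the ribosomal proteins were set beside them. Among 19 translation factors and related genes with a TOP start, 17 had a fitted log2 fold change below 0 in each comparison with WD (53.6%, 50.8% and 51% of all genes with auranofin, atorvastatin and the combination), with medians of -0.54 with auranofin, -0.60 with atorvastatin and -0.44 with the combination. None passed in edgeR, and 0, 8 and 0 of the 19 had an unadjusted p under 0.05, against 6.5%, 14.7% and 1.47% of all genes. Rack1, a scaffold on the small subunit, was at 318, 449 and 296 CPM with auranofin, 250.2, 250.5 and 341 CPM with atorvastatin, 401 and 280.3 CPM with the combination and 414, 1466, 291, 349 and 530.3 CPM in WD. Eef1a1, the elongation factor that delivers transfer RNAs, was at 3930.2, 4375 and 4135 CPM with auranofin, 3378, 3379 and 3957 CPM with atorvastatin, 4489 and 3649 CPM with the combination and 3955, 10112, 3805, 4249 and 3901 CPM in WD. Both, chosen after their values were seen, were highest in WD 2, but Eef1a1 in WD 5 was level with WD 1, 3 and 4. Btf3 and Fau had the smallest p with atorvastatin, at -1.06 (SE 0.40) and -1.47 (SE 0.58), and Eif3f and Eef1g with auranofin, at -0.66 (SE 0.31) and -0.60 (SE 0.30). All of these were highest in WD 2 and WD 5 within the WD group. There Btf3 was at 418 and 283 CPM (130 to 153 CPM in WD 1, 3 and 4) and Fau at 631 and 340 CPM (101 to 160 CPM). Eif3f was at 261 and 221 CPM (110 to 130 CPM) and Eef1g at 507 and 408 CPM (218 to 285 CPM).

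Mitochondrial ribosomal proteins form the separate ribosome of mitochondria. Of 77 tested genes, 65, 75 and 73 were fitted below 0 with auranofin, atorvastatin and the combination (53.6%, 50.8% and 51% of all genes), with medians of -0.30, -0.72 and -0.40. None passed in edgeR, and 3, 48 and 0 had an unadjusted p under 0.05, against 6.5%, 14.7% and 1.47% of all genes. Over all genes the medians were -0.04, -0.01 and -0.01. The medians of 19 genes of the mTORC1 axis were -0.07, 0.20 and 0.04, those of 30 ribosome biogenesis genes -0.06, -0.05 and -0.04, and those of 11 genes of the p53 axis 0.06, 0.11 and 0.04, in the same order. In these 3 lists 0 genes passed in edgeR, with 1, 6 and 0 genes of the mTORC1 axis, 2, 5 and 0 of ribosome biogenesis and 2, 1 and 0 of the p53 axis at an unadjusted p under 0.05, to be read against the same shares of all genes. Single genes with the smallest p were Tsc1, an inhibitor of mTORC1, at 0.71 (SE 0.24) with atorvastatin, Bop1, a factor of large subunit assembly, at -0.60 (SE 0.20) with auranofin, and Bax, the pro-apoptotic target of p53, at -1.09 (SE 0.40) with atorvastatin.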

How the data were processed

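The deposited table held raw counts per gene for 13 libraries. Per the submitters' processing notes, alignment to GRCm39 used STAR 2.6.1d and counting used featureCounts (Subread 1.6.3), and per the labels' protocols the libraries were poly-A and non-stranded. Without strand, reads of overlapping genes cannot be told apart. The counts were used as deposited by the authors. In each library the 18055 genes left by edgeR's filterByExpr (minimum count 10) held at least 99.9% of counts. With edgeR 4.0.16 in R 4.3.3, libraries were scaled with TMM factors, and each gene was fitted with 1 mean per group (quasi-likelihood, two-sided, all 13 libraries in 1 fit). The terms for each drug came from an additive model. P-values were adjusted over all genes tested (Benjamini-Hochberg, threshold 0.05). The SE is the size of the log2 fold change over the square root of F. Log2 CPM used a prior count of 2. No pair of libraries agreed within sampling noise (closest pair, chi-squared of 17.4 per degree of freedom).

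Lengths came from GENCODE M21 (GRCm38, median over principal transcripts, 89 of 89 members matched by Ensembl ID) and start windows from RefSeq (GRCm38.p6). Neither is the build of the counts, so no position was carried over. The table of promoters held a window for 57 of 77 standard members.

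Members and lists were chosen with earlier results of these data known. Named members are those past the threshold, or else the 3 with the smallest p per direction and comparison, the 4 with the largest and the 4 with the smallest spread, and a fixed panel, and for other lists up to 2 genes each. Members named for their level per kilobase or for lying below all WD libraries, and Rack1 and Eef1a1, were chosen after their values were seen. Alternatives were RLE scaling, TMM factors without the members, total counts, no filter or a stricter one (CPM of 1 in 2 libraries), the replicate number as block, DESeq2 1.42.0, limma 3.58.1 (voom with sample quality weights), the compared groups alone, and each library left out. Leaving out WD 2 and WD 5 together, and an offset for transcript length, were added after seeing the data. A gene of the fixed panel is not reported here by name. The fit was tested on simulated data. Figures used matplotlib 3.10.9.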

Additional observations from a re-analysis of the deposited data

Results flagged for a closer look

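Of 41 values examined in the WD group, 6 had 1 library far from the other 4 (gap to the nearest library over the whole range above 0.71). Chance flags about 1 in 20 independent groups. These values all come from the same 5 WD libraries, the members move together, and some were named for their spread. The number flagged therefore cannot be weighed against that rate. In 5 of the 6 flagged values the library was WD 2. Rpl39 was at 367 CPM there (gap over range 0.724), Rps29 at 627 CPM (0.732), Rplp0 at 2386 CPM (0.827), Rpl4 at 1596 CPM (0.711) and Rpl22l1 at 43.1 CPM (0.711). For most members WD 5 lay between WD 2 and the rest, which keeps the gap under the limit. In the sixth, Rpl10l, the testis paralogue of Rpl10, had 6 counts in WD 5 (0.304 CPM) and 0 in the other 12 libraries. For these 6 counts the counterpart Rpl10, 84.8% identical in coding sequence, was at 1466 CPM in the same library. Rpl10 was higher still in WD 2, at 2667 CPM, where Rpl10l had 0 counts. The source of the 6 counts was not tested.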

How the results depend on the processing

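With 2 to 5 libraries per group, WD 2 and WD 5 weigh on every comparison with WD. Over 64 results and 1417 alternative values, 33 changed direction, 79 moved and 1305 did neither, where a count moved if it changed by over 1.5 times, a median if it changed by over 0.71 (the pooled within-group SD of the mean log2 CPM of the members), a share if it changed by over its SD and a single gene only if its call changed. Some medians within that limit still changed by over 1.5 times and stand beside their results. Across these alternatives, members called at an adjusted p of 0.05 stayed at 0. For most of them the share of all genes at an unadjusted p under 0.05 was not computed. The counts of members at that p below cannot be weighed against it there. The cause of the moves was not tested.

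Without WD 2 and WD 5 together, the median log2 fold change of the members was 0.29 with auranofin, -0.32 with atorvastatin, -0.0018 with the combination, 0.31 for the auranofin term, -0.31 for the atorvastatin term and 0.062 for the interaction. In that fit the log2 fold changes with auranofin were 0.074 for Rpl8, 0.13 for Rpl13, 0.12 for Rpl10a, 0.71 for Rps28, 0.55 for Rps27, 0.53 for Rps29, 0.045 for Rpl4 and 0.019 for Rpl7l1. With the combination they were 0.017 for Rpl4 and 0.12 for Rpl7l1. Members with an unadjusted p under 0.05 then numbered 1 with auranofin, 2 with atorvastatin, 1 for the atorvastatin term and 1 for the interaction. Of all genes, 1.42%, 0.811%, 1.34% and 1.07% were lower at that p, in the same order.

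With total counts in place of TMM factors, members with an unadjusted p under 0.05 numbered 14 with auranofin, 4 for the atorvastatin term, 5 for the interaction and 3 for any group difference. Rps10 was then at -0.12 with auranofin and 0.024 with atorvastatin, and Rpl7l1 at 0.18 with the combination. Without a low-count filter, 13, 2 and 9 genes were called with auranofin, atorvastatin and the combination, and 65 for any group difference, while members with an unadjusted p under 0.05 numbered 5 with auranofin, 11 with the combination, 69 for the atorvastatin term, 1 for the interaction and 72 for any group difference. DESeq2 called 2 genes with auranofin, 4 with the combination, 9 for the interaction and 20 for any group difference, and put 5, 71, 1 and 47 members under an unadjusted p of 0.05 for the combination, the atorvastatin term, the interaction and any group difference. Of all genes, 2.06% and 6.54% were under it for the combination and any group difference. With limma's sample weights the combination median was -0.27, and 1 member with auranofin, 12 for the atorvastatin term, 2 for the interaction and 2 for any group difference had an unadjusted p under 0.05. In limma, Rps10 was at -0.36 with auranofin, Rpl24 at 0.087 with atorvastatin and 0.16 with the combination, and Rpl7l1 at 0.019 with the combination. With the length offset, 14 members for the atorvastatin term (3.46% of genes lower) and 0 for any group difference had an unadjusted p under 0.05, and Rps10 was at 0.24 with atorvastatin. Relative to counts outside the mitochondrial genome the member share was 2.69% with auranofin and 2.02% with atorvastatin.

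Of 15 same-numbered pairs of libraries, 5 had a correlation of deviations over 0.1 (range -0.31 to 0.43). The largest was between Auranofin 2 and WD 2. Differently numbered pairs were not compared, so this cannot show whether the replicate numbers pair the libraries. With the replicate number as a block, members with an unadjusted p under 0.05 numbered 7 with atorvastatin, 1 for the atorvastatin term, 1 for the interaction and 0 for any group difference, Rps10 was at 0.15 with atorvastatin and Rpl24 at 0.27 with the combination; the block changed no other call.

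With each library left out in turn, members with an unadjusted p under 0.05 ranged from 0 to 11 with auranofin (11 without WD 3), 1 to 83 with atorvastatin (83 without WD 3), 0 to 11 with the combination (11 without WD 3), 0 to 75 for the atorvastatin term, 0 to 1 for the interaction and 0 to 70 for any group difference (70 without WD 3). Genes called ranged from 0 to 10 with the combination, 0 to 2 for the interaction and 0 to 13 for any group difference, the upper value each time without Combination 1. The auranofin term median ranged from -0.52 to 0.036 (the upper value without WD 2). Log2 fold changes ranged with auranofin from -0.14 to 0.34 for Rps10 and -1.23 to 0.041 for Rps28 (the upper value without WD 2), with atorvastatin from -0.26 to 0.061 for Rps10, and with the combination from -1.05 to 0.26 for Rpl24 and -0.21 to 0.051 for Rpl7l1.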
